A study of Homo sapiens with 8 samples.

Results

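The MAX network is a family of transcription factors with a basic helix-loop-helix leucine zipper that pair with one another and bind DNA. It was described here by 10 genes taken by their symbols: MYC, MYCN, MYCL, MAX, MXD1, MXI1, MXD3, MXD4, MNT and MLX. Of these 10, 8 had a probe set named in the platform annotation, out of 14884 named genes on the array, and MYCN and MYCL were not measured here. Expression was read on 8 arrays of MOLM-14, an established human acute myeloid leukaemia line, spelled MOLM14 or MOLM-14 in most labels and MOML14 in the cell line field. The cells of all 8 arrays had received doxycycline for 72 h, the agent commonly used to switch on inducible hairpins. In 4 arrays the cells carried a short hairpin RNA (shCD39) that targets ENTPD1, which encodes CD39, an enzyme that breaks down extracellular ATP, and in 4 a scrambled hairpin (shCTRL). The labels call the arrays technical replicates and the extraction protocol speaks of clones, so every p-value here reflects array-to-array spread, which may be technical. The comparison of shCD39 with shCTRL bears on which transcripts differ when CD39 is targeted.

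MAX is the shared partner of the family. MYC and MAX together bind the E-box, CACGTG, and raise transcription of genes for ribosome assembly, nucleotide synthesis and the cell cycle, whereas MXD proteins, MXI1 and MNT pair with MAX on the same sites and recruit SIN3 and histone deacetylases to lower it. MLX heads a parallel arm, in which it pairs with MLXIP or MLXIPL, sensors of glucose metabolites, or with MNT, MXD1 and MXD4. In myeloid cells MYC is characteristic of proliferating precursors and MXD1 of maturing cells, and in leukaemias with a KMT2A fusion, which MOLM-14 carries, MYC is kept high through the fusion.

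The values are log2 expression per probe set as deposited, and every change below is shCD39 minus shCTRL on that log2 scale. A gene is said to have risen or fallen when its adjusted p was under 0.05 in limma's moderated test, with Benjamini-Hochberg adjustment over all 14884 genes. ENTPD1 read 2.14 to 2.95 on the shCD39 arrays and 2.88 to 4.12 on the shCTRL arrays, a change of -0.79 (SE 0.25, limma adjusted p = 0.178). The highest value was that of shCTRL array 4, without which the ENTPD1 change was -0.53. This probe set is dim, at the 28.8th percentile of the named genes, where the array medians over all probe sets were 3.13 to 3.17. How far background limits the ENTPD1 reading was not tested. Array pairs correlated at 0.974 to 0.987 over all probe sets. The shCD39 array 4 correlated on average at 0.979 with its own group and 0.984 with the shCTRL arrays. Calls that turn on it are therefore also given without it. As it was singled out for its likeness to the controls, leaving it out favours larger differences. The adjusted p-values without it are descriptions and no separate support. In a bulk sample, fewer cells of a type and less RNA per cell cannot be told apart.

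Of the 8 measured members, 0 passed the threshold by limma, against 0.0941% of all genes (0.047% higher and 0.047% lower). At an unadjusted p under 0.05, 3 members differed, set against 14.7% of all genes. MXD4 was the 1 member higher in this sense (6.54% of all genes), and MYC and MNT were the 2 lower (8.13% of all genes). The 4 shCD39 values lay wholly on one side of the 4 shCTRL values in 2 of the 8 members, MNT and MXD4, while this was so in 7.85% of all genes. The median change of the 8 members was -0.07, beside 0.01 over all genes.

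**Figure D1:**
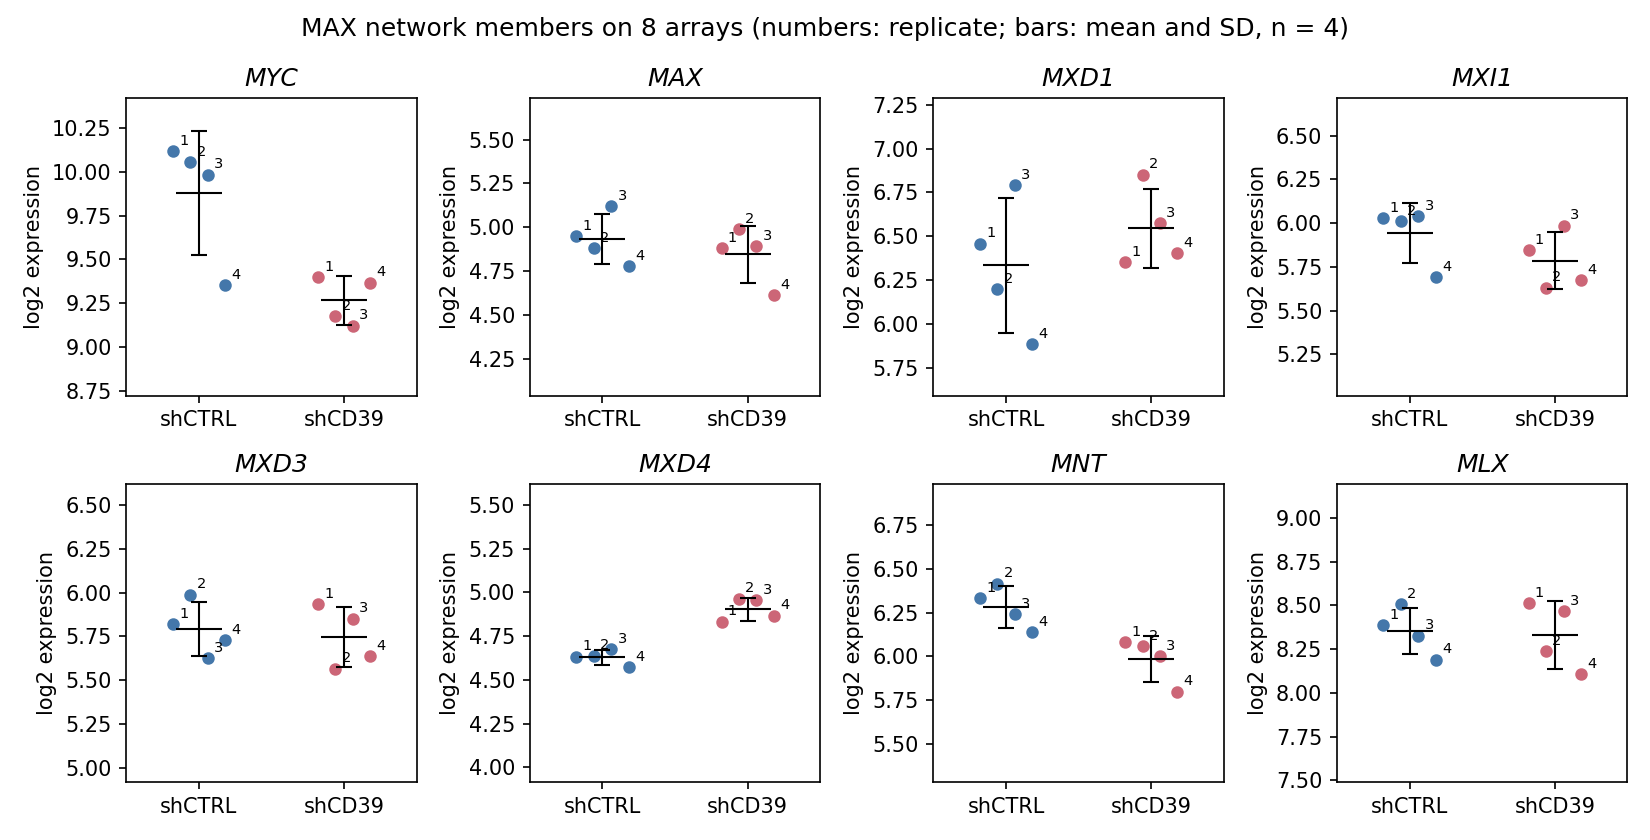
Log2 expression of the 8 measured members on each array, with shCTRL in blue and shCD39 in red. Numbers give the replicate, black bars the mean and SD of 4 arrays, and all panels span the same range of log2 units. MNT and MXD4 separate the groups, whereas in MYC the shCTRL array 4 (9.35) lies among the shCD39 arrays.

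MYC, the activating member, had the largest change of the family. It read 9.40, 9.17, 9.12 and 9.37 on shCD39 arrays 1 to 4, and 10.12, 10.06, 9.98 and 9.35 on shCTRL arrays 1 to 4. All shCD39 arrays and shCTRL array 4 were thus low and shCTRL arrays 1 to 3 were high, and the groups overlapped through shCTRL array 4 alone. The means were 9.27 ± 0.14 in shCD39 and 9.88 ± 0.36 in shCTRL (SD, n = 4 arrays each), a change of -0.61 (SE 0.16, 95% interval -0.97 to -0.25), or 1.53-fold lower. The limma adjusted p was 0.131 and the 2-sided exact permutation p was 0.0857, where the smallest p that 4 against 4 arrays allow is 0.0286.

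The call on MYC turned on that one control array, and leaving out the array nearest the other group favours a larger difference. Without shCTRL array 4 the change was -0.79 (SE 0.12) and MYC passed the threshold as lower (limma adjusted p = 0.0287). Without both arrays numbered 4 it was -0.82 (limma adjusted p = 0.0175). In the other 15 alternatives MYC stayed above the threshold, although the change was negative in all 17. Without shCD39 array 4 it was -0.65 (limma adjusted p = 0.0853).

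**Figure D2:**
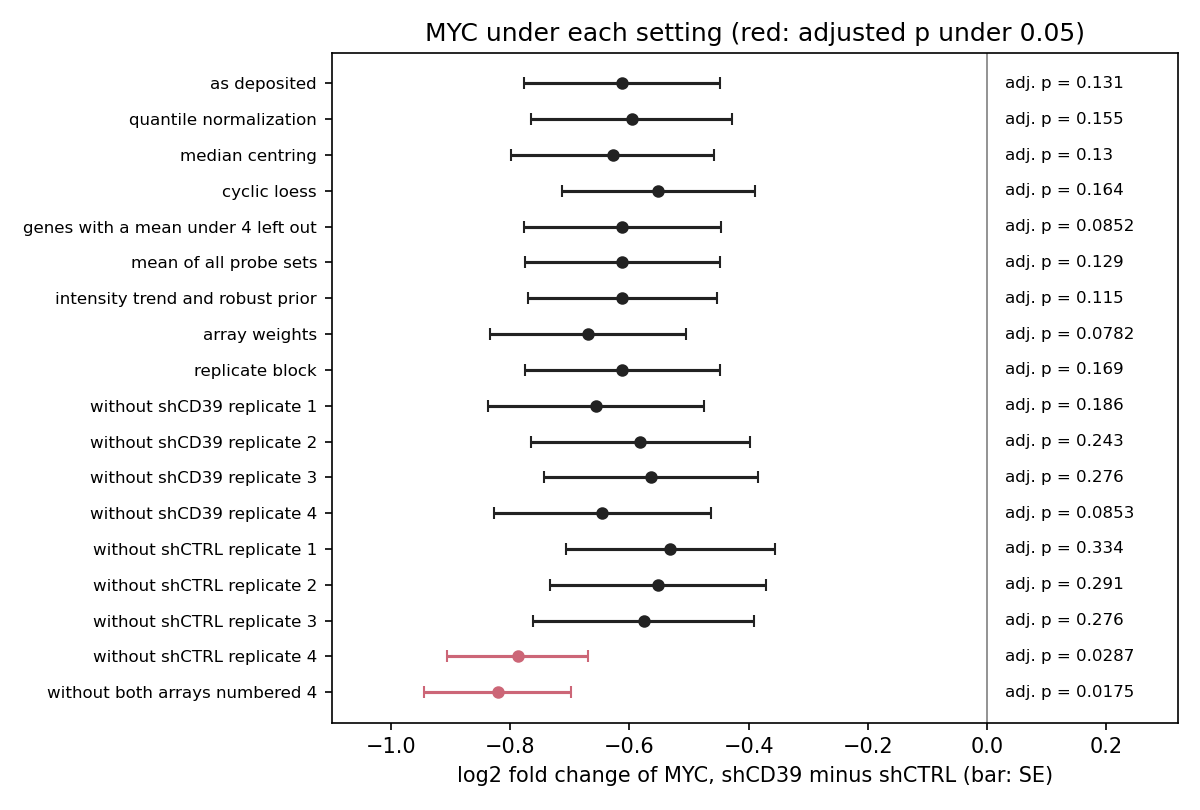
Change of MYC (points, with the SE as bars) as deposited and under each of 17 alternatives, with limma's adjusted p at the right. The change lies between -0.82 and -0.53 throughout, and the 2 red points, both without shCTRL array 4, are those with an adjusted p under 0.05.

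MAX, the partner with which MYC binds the E-box, differed little between the groups. It read 4.88, 4.99, 4.89 and 4.61 in shCD39 and 4.95, 4.88, 5.12 and 4.78 in shCTRL. Array 4 was the lowest of each group, and the groups overlapped over most of their range. The change was -0.09 (SE 0.12, 95% interval -0.35 to 0.17, limma adjusted p = 0.800), and it ran from -0.14 to -0.01 when single arrays were left out. A change of MAX as large as that fitted for MYC lies outside this interval, but the interval covers array-to-array spread only. With means of 4.84 in shCD39 and 4.93 in shCTRL, MAX was far dimmer than MYC. How far background narrows its change was not tested, so a change of that size is not excluded.

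Among the antagonists, MNT and MXD4 separated the groups, and they did so in opposite directions. MNT, which is expressed in growing and resting cells alike and competes with MYC for MAX, read 6.08, 6.06, 6.0 and 5.80 in shCD39 and 6.33, 6.41, 6.24 and 6.14 in shCTRL. Every shCD39 array was below every shCTRL array, with shCD39 array 1 and shCTRL array 4 closest to each other. The change was -0.30 (SE 0.11, 95% interval -0.54 to -0.05), or 1.23-fold lower (limma adjusted p = 0.242, exact permutation p = 0.0286).

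MXD4, an antagonist linked to differentiation, read 4.83, 4.96, 4.95 and 4.87 in shCD39 and 4.63, 4.64, 4.68 and 4.57 in shCTRL. Here every shCD39 array was above every shCTRL array, and shCTRL array 4 was the lowest of all. With SDs of 0.07 and 0.04 the groups were tight, and the change was 0.27 (SE 0.10, 95% interval 0.07 to 0.48), or 1.21-fold higher (limma adjusted p = 0.214, exact permutation p = 0.0286). Over the 17 alternatives the change ran from 0.25 to 0.31 for MXD4 and from -0.34 to -0.23 for MNT, and neither gene passed the threshold in any of them.

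The promoters of both genes hold the E-box that the network itself binds. In RefSeq's windows of 300 bases (250 before to 50 after a gene's start, GRCh38.p14), 9 of the 10 members had a window and 3 of them held CACGTG: MNT, MXD4 and MLX. The sequence is its own reverse complement, so a search of one strand covers both. Of all 27305 genes with a window, 8.77% held it. Stretches of 60 bases are shown for these 3 members and for ARRDC4, a target of MLX, since these are the places where the network could bind its own genes; they run 5′ to 3′ on the gene's strand, with the E-box in capitals.
MNT: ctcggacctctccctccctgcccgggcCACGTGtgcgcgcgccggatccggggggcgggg
MXD4: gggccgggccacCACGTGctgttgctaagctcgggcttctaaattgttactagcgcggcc
MLX: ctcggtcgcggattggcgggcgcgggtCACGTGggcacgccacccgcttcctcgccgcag
ARRDC4: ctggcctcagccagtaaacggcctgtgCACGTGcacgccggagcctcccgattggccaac
The stretch of MNT is chr17:2401221-2401280 on the minus strand, and its E-box begins 193 bases before the start of the gene. That of MXD4 is chr4:2262300-2262359 on the minus strand, with the E-box 238 bases before the start. That of MLX is chr17:42567023-42567082 on the plus strand, with the E-box 50 bases before the start. That of ARRDC4 is chr15:97960466-97960525 on the plus strand, with the E-box 210 bases before the start. A match of letters is no evidence of binding, and the 3 members that hold it did not share a direction: MNT was lower, MXD4 higher, and MLX had a change of -0.02.

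The remaining antagonists did not separate the groups. MXD1, which replaces MYC on MAX as myeloid cells mature, read 6.35, 6.85, 6.57 and 6.40 in shCD39 and 6.46, 6.20, 6.79 and 5.88 in shCTRL. The shCTRL arrays spread more widely than the shCD39 arrays, and their array 4 was the lowest of all. The change of 0.21 (SE 0.19, 95% interval -0.19 to 0.62, limma adjusted p = 0.657) was 0.06 without shCTRL array 4, 0.11 without shCD39 array 2, 0.37 without shCTRL array 3 and 0.11 without both arrays numbered 4.

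MXI1, also known as an antagonist of MYC, read 5.85, 5.63, 5.99 and 5.68 in shCD39 and 6.03, 6.01, 6.04 and 5.69 in shCTRL. As for MYC, shCTRL arrays 1 to 3 were close together and array 4 lay apart, among the shCD39 arrays. The change was -0.16 (SE 0.12, limma adjusted p = 0.613), or -0.24 without shCTRL array 4 (limma adjusted p = 0.393). A second probe set of MXI1, assigned to another RefSeq transcript of the gene, pointed the other way. It read 4.82, 4.90, 5.19 and 4.76 in shCD39 and 4.54, 4.66, 4.78 and 4.83 in shCTRL, a change of 0.22 (SE 0.13, limma adjusted p = 0.549 over all probe sets). The 2 probe sets of the gene thus disagree in sign, each with overlapping groups, and their mean gave a change of 0.03.

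MXD3, which is produced in proliferating cells and is the member of its family most often found at the S phase, read 5.57 to 5.93 in shCD39 and 5.63 to 5.99 in shCTRL. Its change was -0.04 (SE 0.12, 95% interval -0.31 to 0.23, limma adjusted p = 0.911), and the second probe set of the gene gave -0.03.

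MLX, the partner of the glucose-sensing arm, read 8.51, 8.24, 8.47 and 8.11 in shCD39 and 8.39, 8.51, 8.33 and 8.19 in shCTRL. The groups overlapped fully and the change was -0.02 (SE 0.12, 95% interval -0.29 to 0.25, limma adjusted p = 0.962). The sign of the changes of MLX and MXD3 turned under quantile and cyclic loess scaling, so neither has a direction here.

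**Figure D3:**
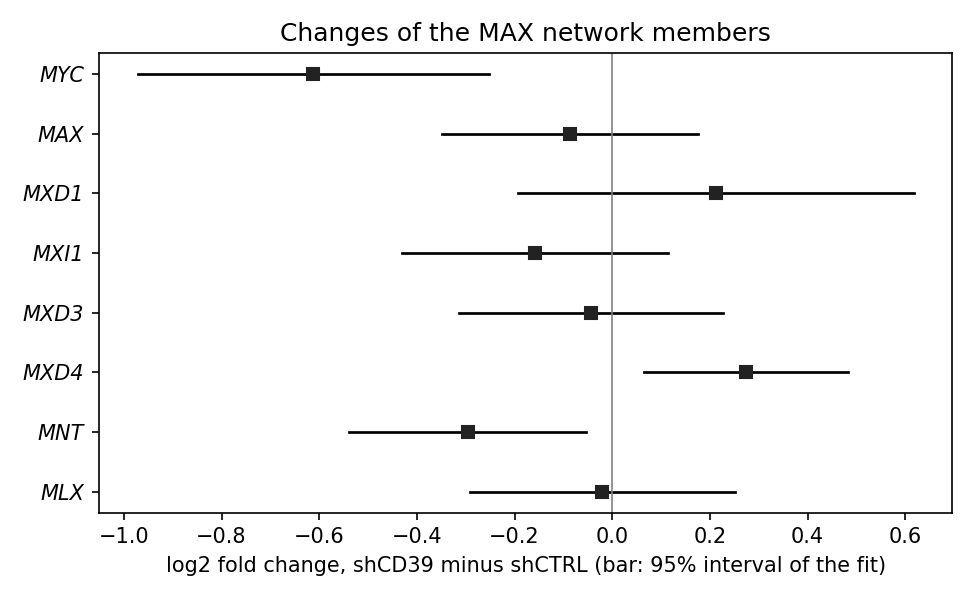
Change of each measured member, shCD39 minus shCTRL, with the 95% interval of the limma fit, not adjusted for multiple testing. The intervals of MYC (-0.97 to -0.25), MNT (-0.54 to -0.05) and MXD4 (0.07 to 0.48) do not reach 0, and those of the other 5 members do.

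The 5 genes listed as further partners of MLX and MAX or as targets of MLXIP were all lower on average in shCD39. Their median was -0.30 (-0.19 without shCTRL array 3), and 0 of 5 passed by limma (1 lower at an unadjusted p under 0.05). MLXIP, the glucose sensor also called MondoA, read 6.19, 6.12, 6.29 and 5.78 in shCD39 and 6.59, 6.35, 6.38 and 6.30 in shCTRL. All its shCD39 values were below all its shCTRL values, by a narrow margin at shCD39 array 3 and shCTRL array 4, and the change was -0.31 (SE 0.13, limma adjusted p = 0.301, exact permutation p = 0.0286), or -0.20 without shCD39 array 4. Its target ARRDC4 had -0.35 (SE 0.21), which was -0.19 without shCTRL array 3 and -0.53 without shCTRL array 4. MLXIPL, the liver-type sensor ChREBP, had -0.30 (SE 0.17), or -0.45 without shCD39 array 2, and the groups of both genes overlapped. MLXIPL was dim, with means of 3.33 in shCD39 and 3.63 in shCTRL. TXNIP, a brake on glucose uptake and the best-known target of MLXIP, had -0.21 (SE 0.24), which was -0.02 without shCTRL array 3, -0.12 without shCD39 array 4 and -0.45 without shCTRL array 4. MGA, a repressor that pairs with MAX, had a change close to 0.

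The genes whose levels followed MYC most closely were sought among 6010 genes with a mean of at least 5. Over the 8 arrays the 5 highest Pearson correlations with MYC were those of TJAP1 (0.987), EEF2 (0.985), ELP5 (0.983), TXLNA (0.983) and TRIB3 (0.979). After each group's mean was taken off, the correlations were 0.973, 0.961, 0.962, 0.955 and 0.944. The genes were picked by their correlation over these same arrays, and shCTRL array 4 contributes most of the spread within groups. The within-group values are therefore no separate evidence of likeness. All these correlations are descriptions over 8 arrays that share 1 normalization. Of the 6010 genes, 129 correlated with MYC at over 0.9, and the median correlation was 0.21.

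TRIB3, a pseudokinase induced by the stress factor ATF4, read 5.94, 5.86, 5.51 and 6.29 in shCD39 and 8.35, 8.0, 8.42 and 6.34 in shCTRL. Its array 4 of shCTRL lay next to the shCD39 arrays, as in MYC, and the change was -1.88 (SE 0.38, limma adjusted p = 0.0805). TJAP1, a tight junction and Golgi protein, read 5.44 to 5.69 in shCD39 and 6.51, 6.44, 6.22 and 5.79 in shCTRL, with a change of -0.67 (SE 0.15, limma adjusted p = 0.0971). ELP5, a subunit of the Elongator complex that modifies tRNA, had -0.62 (SE 0.18), TXLNA, a syntaxin-binding protein, had -0.25 (SE 0.11) and the translation elongation factor EEF2 had -0.16 (SE 0.10). None of the 5 passed the threshold.

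The other genes of the pathway came from 13 lists, of which 140 genes outside the 10 members were measured. By limma 0 of the 140 passed the threshold, and in 31 the groups did not overlap, 30 with lower and 1 with higher values in shCD39. Over all genes, 4.23% were lower and 3.61% higher in this sense. At an unadjusted p under 0.05 by limma, 8.13% of all genes were lower and 6.54% higher, the shares to set beside each list below. Without shCD39 array 4, 15 of these genes passed (14 lower, 1 higher), beside 423 instead of 14 over all genes. Without shCTRL array 4, 3 passed, all lower (SHMT2, EIF4EBP1 and DDIT3), beside 48 over all genes.

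**Figure D4:**
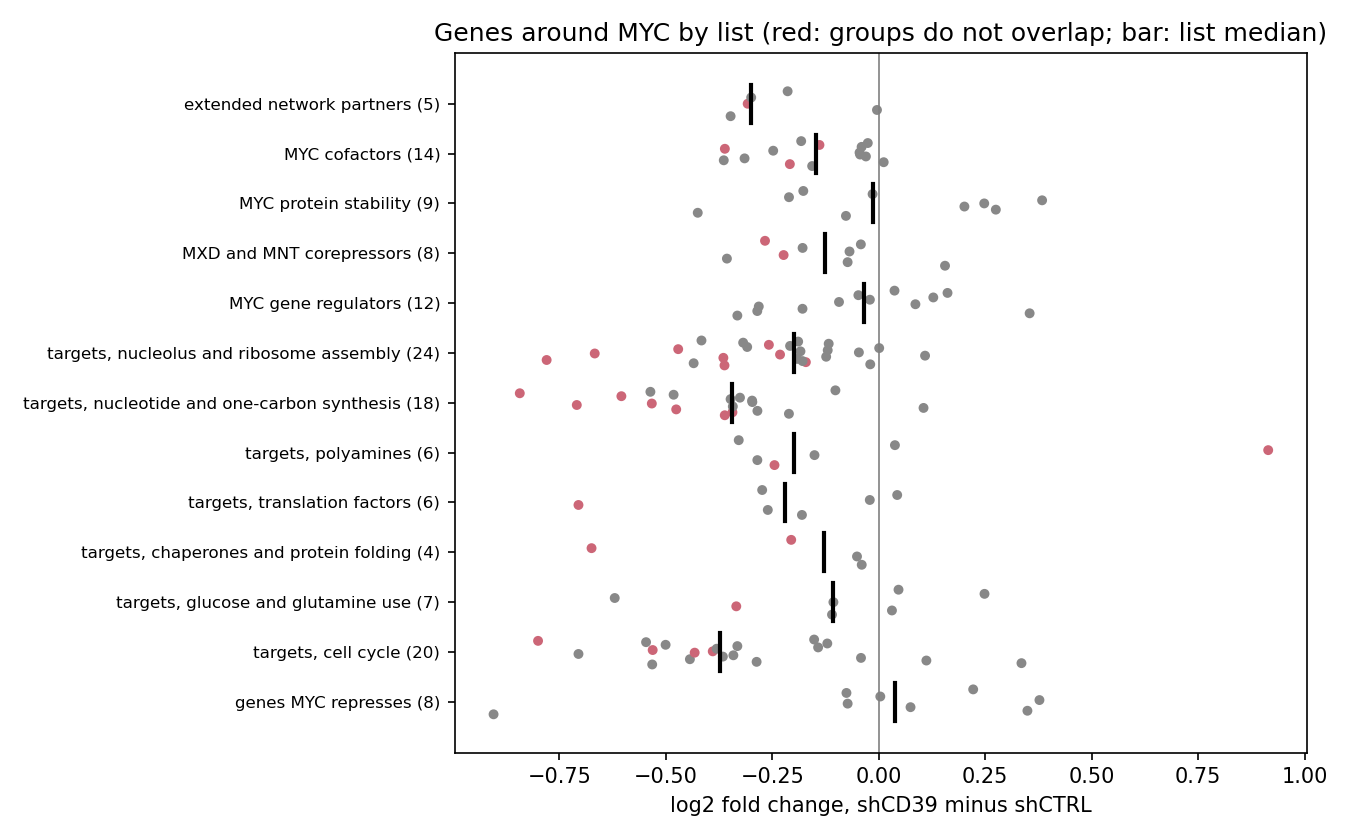
Change of each measured gene in 13 lists around MYC, with the number measured in brackets. Red points are genes whose groups do not overlap and black bars are list medians. The 2 lowest medians are those of the cell cycle (-0.37) and nucleotide synthesis (-0.35) targets, and SAT1 (0.91) is the red point at the right.

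In the 7 target lists, 87.1% of the 85 measured genes had lower means in shCD39, beside 48.0% of all genes. The median change of the 85 was -0.29. They include SAT1, which acts in polyamine breakdown and was higher. Median levels were 7.77 (nucleolar), 7.47 (nucleotide) and 6.67 (cell cycle), beside 4.30 over all genes. The shares over all genes were not matched for level, and the lists were chosen with earlier results of these data known. Contrasts of list shares with all genes, here and below, are therefore descriptions and no separate support. Members of these lists are shared with the replication and amino acid stress programmes, and they are not targets of MYC alone.

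Of 24 measured genes of the nucleolus and of ribosome assembly, 22 were lower and 2 higher, with a median of -0.20. By limma 0 passed, and 8 were lower at an unadjusted p under 0.05 (33.3%, beside 8.13% of all genes). The groups did not overlap in 8 (33.3%, beside 7.85% of all genes). NOC4L, a factor of small subunit assembly, read 6.99, 6.45, 6.87 and 6.85 in shCD39 and 7.49, 7.49, 7.54 and 7.30 in shCTRL. All its shCD39 values were lower, and the change was -0.67 (SE 0.13, limma adjusted p = 0.0783, exact permutation p = 0.0286). HEATR1, which is needed for transcription and processing of ribosomal RNA, read 8.37, 8.76, 8.33 and 9.14 in shCD39 and 9.35 to 9.55 in shCTRL. Its shCD39 array 4 lay closest to the controls, and the change was -0.78 (SE 0.17, limma adjusted p = 0.0873), or -0.94 without that array (limma adjusted p = 0.00774). NOP58, a core protein of box C/D small nucleolar RNPs, had -0.47 (SE 0.12, limma adjusted p = 0.117). Without shCD39 array 4, when 423 of all genes passed, 2 genes of this list did, NOC4L and HEATR1, both lower.

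Enzymes of nucleotide and one-carbon synthesis had the largest share of unadjusted differences among the 13 lists. At an unadjusted p under 0.05 by limma, 13 of 18 measured genes were lower (72.2%, beside 8.13% of all genes). In total, 17 were lower and 1 was higher, with a median of -0.35, and by limma 0 passed. SHMT2, the mitochondrial serine hydroxymethyltransferase, read 5.93, 5.99, 5.69 and 6.36 in shCD39 and 7.02, 7.01, 6.84 and 6.46 in shCTRL. The arrays numbered 4 of both groups lay nearest to each other, and the change was -0.84 (SE 0.17, limma adjusted p = 0.0783). PFAS, an enzyme of purine synthesis, read 7.50, 7.29, 7.20 and 7.36 in shCD39 and 7.81 to 7.94 in shCTRL, a change of -0.53 (SE 0.10, limma adjusted p = 0.0783). MTHFD1L, which releases formate from mitochondria, had -0.71 (SE 0.15, limma adjusted p = 0.0877). Without shCD39 array 4, when 423 of all genes passed, 6 genes of this list did, all lower: PFAS, GMPS, TYMS, SHMT2, MTHFD1L and RRM2. Without shCTRL array 4, 1 did, SHMT2 (-0.97, limma adjusted p = 0.0386).

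The polyamine genes were split. SAT1, which acetylates polyamines for breakdown and export, read 6.13, 5.96, 6.36 and 5.44 in shCD39 and 5.22, 5.08, 5.03 and 4.91 in shCTRL. All its shCD39 values were higher, with array 4 nearest to the controls, and the change was 0.91 (SE 0.17), or 1.88-fold (limma adjusted p = 0.0783). Without shCD39 array 4 it rose by 1.09 (limma adjusted p = 0.00497). On the side of synthesis, the spermidine synthase SRM had -0.33 (SE 0.15), the spermine synthase SMS 0.04 (SE 0.13) and AMD1, which supplies the aminopropyl donor, -0.24 (SE 0.10). AZIN1, which shields ornithine decarboxylase, had -0.29 (SE 0.12). Ornithine decarboxylase itself, ODC1, a classical target of MYC, had -0.15 (SE 0.18), which ranged from -0.33 without shCD39 array 4 to -0.01 without shCD39 array 3. By limma 0 of the 6 genes passed (3 lower and 1 higher at an unadjusted p under 0.05), and the list median of -0.20 was -0.12 without shCD39 array 3.

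Of 20 measured cell cycle targets, 18 were lower and 2 higher, with a median of -0.37. By limma 0 passed, with 12 lower (60%, beside 8.13% of all genes) and 1 higher (5%, beside 6.54%) at an unadjusted p under 0.05. The groups did not overlap in 4 (20%, beside 7.85% of all genes). MCM5, a subunit of the replicative helicase, read 7.75, 7.18, 7.41 and 7.70 in shCD39 and 8.33, 8.65, 8.03 and 8.25 in shCTRL. All its shCD39 values were lower, and the change was -0.80 (SE 0.16, limma adjusted p = 0.0805). CKS1B, which helps the ubiquitin ligase of SKP2 to clear CDKN1B, had -0.53 (SE 0.12, limma adjusted p = 0.0933), and CDC45, of the same helicase as MCM5, -0.71 (SE 0.17, limma adjusted p = 0.109). Without shCD39 array 4, when 423 of all genes passed, 4 genes of this list did as lower, CDC25A, CKS1B, MCM5 and CDC45.

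In the translation list, 5 of 6 measured genes were lower, with a median of -0.22 (-0.13 without shCD39 array 3), and by limma 0 passed (2 lower at an unadjusted p under 0.05). EIF4EBP1, an inhibitor of the cap-binding factor EIF4E that is also induced by ATF4, read 8.14, 7.95, 8.10 and 8.15 in shCD39 and 8.88, 8.99, 8.82 and 8.48 in shCTRL. All its shCD39 values were lower, and with a change of -0.71 (SE 0.12, limma adjusted p = 0.0698) it had the lowest adjusted p of the 140 genes. It passed without shCD39 array 4 (-0.73, limma adjusted p = 0.0228) and without shCTRL array 4 (-0.81, limma adjusted p = 0.0215). EIF4E itself had -0.26 (SE 0.12) and the termination factor GSPT1 -0.27 (-0.16 without shCD39 array 3).

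The 4 measured chaperone genes were all lower (median -0.13, or -0.08 under quantile and cyclic loess scaling). PHB2, a scaffold of the inner mitochondrial membrane, read 8.01, 8.75, 7.62 and 8.93 in shCD39 and 8.94 to 9.07 in shCTRL, a change of -0.67 (SE 0.24, limma adjusted p = 0.224) that rested mostly on shCD39 arrays 1 and 3 (-0.44 without array 3). TRAP1 had -0.21, and PHB1 had -0.05 with a sign that turned when single arrays were left out. Of 7 genes of glucose and glutamine use, 4 were lower and 3 higher (median -0.11, or -0.04 under quantile scaling). HK2, a hexokinase, had -0.33 (SE 0.10) with groups that did not overlap, and PGAM1 had 0.25. LDHB, a lactate dehydrogenase subunit, read 7.62, 8.60, 7.24 and 8.88 in shCD39 and 8.61 to 8.82 in shCTRL. Its shCD39 arrays 2 and 4 lay near the controls, and the change of -0.62 (SE 0.30) was -0.34 without shCD39 array 3. In each of the 2 lists, by limma 0 passed and 1 gene was lower at an unadjusted p under 0.05.

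On the arrays numbered 4, MYC and the means of its target lists stood differently relative to the controls. Relative to the shCTRL mean, MYC stood at 0.24, 0.18, 0.11 and -0.53 on shCTRL arrays 1 to 4 and at -0.48, -0.70, -0.76 and -0.51 on shCD39 arrays 1 to 4. The mean of the 24 nucleolar genes on shCTRL array 4 was -0.02, beside -0.01 to 0.03 on the other controls, and that of the 18 nucleotide genes was -0.01, beside -0.07 to 0.04. On shCTRL array 4, then, MYC was as low as in the shCD39 arrays while these list means were at the control level. Single genes of the lists lay on both sides of their shCTRL means, so the list means do not show where each gene stood. On that array SHMT2 read 6.46 and WDR74 5.23, below shCTRL means of 6.83 and 5.55. UMPS read 7.51 and PUS7 7.42, above shCTRL means of 7.18 and 7.17. On shCD39 array 4 MYC was low as well, while the nucleolar genes stood at -0.10 and the nucleotide genes at -0.16. On shCD39 arrays 1 to 3 the nucleolar genes stood at -0.24, -0.28 and -0.38 and the nucleotide genes at -0.36, -0.47 and -0.57.

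**Figure D5:**
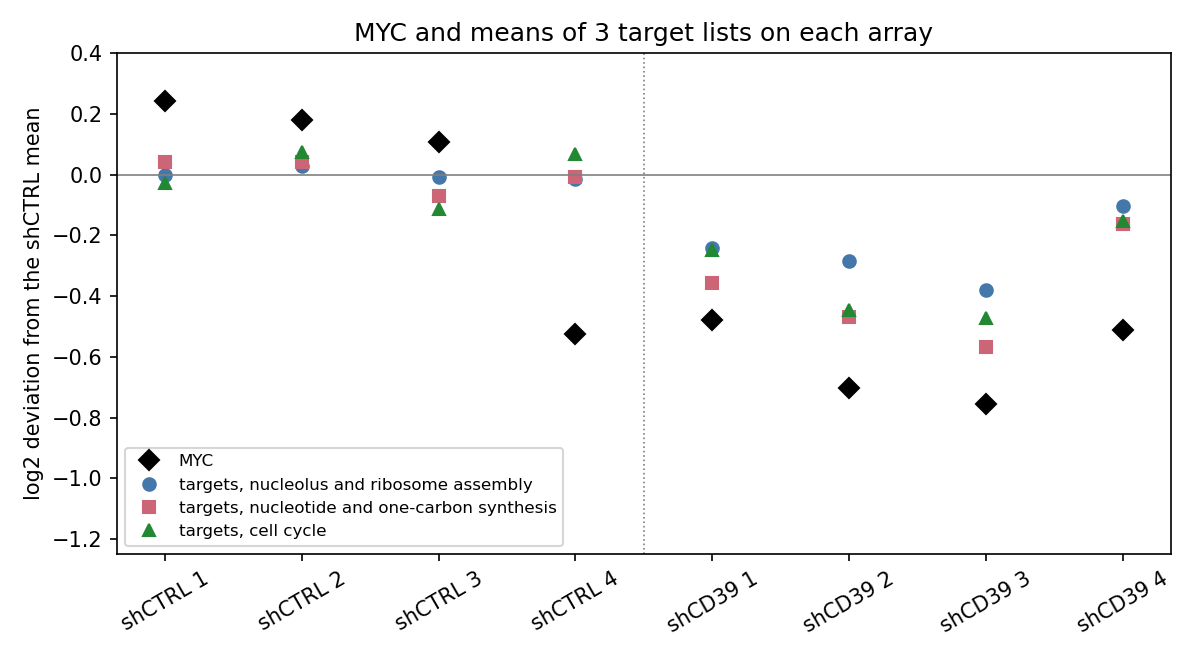
Log2 deviation from the shCTRL mean, on each array, of MYC (black diamonds) and of the means of 3 target lists (24 nucleolar genes, 18 nucleotide genes, 20 cell cycle genes). On shCTRL array 4 MYC stands at -0.53 while the means of the nucleolar and nucleotide lists stand at -0.02 and -0.01.

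Genes that MYC represses showed no shared direction. Of 8 measured, 5 were higher and 3 lower, with a median of 0.04 that ran from 0.0053 without shCTRL array 4 to 0.093 without shCTRL array 2. With genes under a mean of 4 left out it was 0.00062. The list was dim, with a median level of 3.99 beside 4.30 over all genes and 7.77 in the nucleolar list. A shared direction could thus be missed here, and the contrast with the activated targets is not one at like levels. By limma 0 passed (1 higher and 1 lower at an unadjusted p under 0.05). CDKN1A, CDKN1B and CDKN2B, the cell cycle inhibitors best known for this, were not measured here. NDRG1, named for its repression by MYC, read 5.66, 5.25, 5.58 and 4.61 in shCD39 and 4.99, 5.12, 4.98 and 4.51 in shCTRL. Array 4 was the lowest of both groups, and the change was 0.38 (SE 0.22, limma adjusted p = 0.463), with 0.60 without shCD39 array 4 and 0.25 without shCD39 array 1 or shCTRL array 4. GAS1, a growth arrest gene, had 0.35 (SE 0.14) at dim means of 3.73 in shCD39 and 3.38 in shCTRL. DDIT3, the stress factor CHOP, had the opposite sign. It read 4.20, 4.64, 3.73 and 4.33 in shCD39 and 5.52, 5.37, 5.59 and 4.04 in shCTRL, a change of -0.90 (SE 0.31, limma adjusted p = 0.208). Its shCTRL array 4 was low, as for MYC and TRIB3, and without that array it fell by 1.27 (limma adjusted p = 0.0287).

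Cofactors of MYC had lower means in 13 of 14 measured genes (median -0.15, but -0.07 under quantile and cyclic loess scaling and without shCD39 array 3). By limma 0 passed, with 2 lower at an unadjusted p under 0.05. SP1, a factor that acts with MYC at GC-rich promoters, read 7.22 to 7.50 in shCD39 and 7.61 to 7.81 in shCTRL, a change of -0.36 (SE 0.11, limma adjusted p = 0.157). EP400, of the TIP60 histone acetylase complex, had -0.36 (SE 0.13), and CCNT1, the cyclin of the elongation kinase P-TEFb, -0.21 (SE 0.10). Of the corepressors that MXD proteins and MNT recruit, 7 of 8 were lower (median -0.13, or -0.05 under quantile and cyclic loess scaling and -0.21 without shCD39 array 4). By limma 0 passed, with 3 lower at an unadjusted p under 0.05: SUDS3, a SIN3 subunit (-0.27, SE 0.10), HDAC2 (-0.36, SE 0.15) and the histone-binding RBBP4 (-0.22, SE 0.10).

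Genes that set the stability of the MYC protein were divided, 4 higher and 5 lower, with a median of -0.01 whose sign varied with the setting. PIM2, a kinase that stabilises MYC, had 0.38 (SE 0.15, limma adjusted p = 0.254). CIP2A, which keeps the phosphatase PP2A off MYC, read 6.90, 7.01, 6.73 and 7.78 in shCD39 and 7.34 to 7.67 in shCTRL. Its shCD39 array 4 was above every control, and the change of -0.43 (SE 0.20, limma adjusted p = 0.346) was -0.65 without that array (limma adjusted p = 0.0230). SET, an inhibitor of the same phosphatase, had -0.21. By limma 0 of the 9 passed, with 1 higher at an unadjusted p under 0.05.

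Factors that control the MYC gene showed no common direction either, with 5 of 12 higher and 7 lower (median -0.03, with a sign that turned under quantile and cyclic loess scaling). By limma 0 passed, with 1 higher and 1 lower at an unadjusted p under 0.05. The ETS factor ERG had 0.35 (SE 0.13) at dim means of 3.80 in shCD39 and 3.45 in shCTRL. E2F1 had -0.33 (SE 0.14). The receptor kinase FLT3, which is mutated in MOLM-14, had -0.29 (SE 0.15), or -0.16 without shCD39 array 1. KMT2A was not measured here.

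Among the target lists, CACGTG occurred in the windows of 50% of the 32 nucleolar genes and 36.4% of the 22 nucleotide genes that had a window. The share was 40% of 5 polyamine, 33.3% of 15 glucose and glutamine and 20% of 15 cell cycle genes. It was 16.7% of 12 chaperone and 15.4% of 13 translation genes. Genes that MYC represses had 20% of 15, and all genes 8.77%. The 23 measured targets that held it had a median of -0.19, and 100% of them were lower. The 44 that did not hold it had a median of -0.32, and 79.5% of them were lower. Over all genes with a window, the median was -0.01 and 53.0% were lower among 1187 genes with it, beside 0.01 and 48.5% among 9562 without it.

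Markers of the labelled cell type were set against a mean of 4. The median level over all named genes was 4.30, so reaching 4 does not by itself show that a gene is expressed. A mean of at least 4 was reached by 9 of 10 measured myeloid genes (CD14, at 2.38 in shCTRL, was the exception) and by 6 of 6 genes listed for KMT2A-rearranged leukaemia. The same level was reached by 3 of 6 T and NK genes, 1 of 2 B and plasma cell genes, 2 of 5 erythroid and megakaryocyte genes and 2 of 6 epithelial and fibroblast genes, and CD3D, CD3E and CD3G were not measured here. Of the 10 myeloid genes, 8 were higher in shCD39 and 2 lower, with a median change of 0.09, and by limma 0 passed. The 3 higher at an unadjusted p under 0.05 were CSF1R at 1.36 (SE 0.29), LYZ at 1.07 (SE 0.24) and TYROBP at 1.06 (SE 0.22), while MPO had -0.40 (SE 0.39) and the other 6 lay between -0.01 and 0.13. The log2 of their summed level was 11.7 to 12.2 in shCD39 and 11.4 to 11.7 in shCTRL. In the T and NK list, 5 of 6 measured genes were higher, with summed levels of 7.25 to 8.14 against 6.98 to 7.27, NKG7 at 0.50 and IL7R at 1.53. The epithelial and fibroblast list had 6 of 6 higher, with summed levels of 7.86 to 7.95 against 7.68 to 7.91. The B and plasma cell list and the erythroid list had median changes of -0.04 and 0.01, and the KMT2A list had -0.24. The part of these markers in the changes of the network was not tested.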

How the data were processed

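The authors' deposited values are log2 expression per probe set (53617 on 8 arrays), made with RMA in the oligo package per the submitters' processing notes. For the version and the build, the sources used here give nothing. RMA scales all arrays alike, so each change is one against most other probe sets. Platform annotation, with symbols brought up to date by Entrez ID from RefSeq (GRCh38.p14, names only), named 16098 probe sets, each with 1 symbol; 37519 are unnamed here, and a gene called not measured may be among them. Each of 14884 genes took its probe set with the highest mean. limma 3.58.1 in R 4.3.3 compared 4 shCD39 with 4 shCTRL arrays without a filter; single genes also had an exact permutation test. The number of arrays limits the precision. Figures used matplotlib 3.10.9. The fit was tested on simulated data.

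Network members, lists and rules were chosen with earlier results of these data known. Named genes are the members, up to 3 per list with the lowest p (up to 4 by size where any pass), the 5 genes most like MYC, and ENTPD1; SRM, ODC1, SMS, MPO, TXNIP, MGA, GMPS, TYMS, RRM2, CDC25A and CD14 were added after their values were seen. Alternatives were 3 scalings, a filter at a mean of 4, averaged or separate probe sets, an intensity trend with robust prior, weights per array, a block for the replicate number, and left-out arrays. Same-numbered arrays deviated from their group means with correlations of -0.01, -0.04, 0.05 and 0.06, so no pairing by number was seen. These correlations run over all genes, dim ones included, and cannot settle whether same-numbered arrays share a culture.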

Additional observations from a re-analysis of the deposited data

Results flagged for a closer look

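Among 18 groups of 4 arrays (8 members and ENTPD1, 2 groups each), 1 held an array far from the others by Dixon's criterion, about as many as chance gives (1 in 20 groups). MXI1 read 5.69 on shCTRL array 4, where the next lowest shCTRL array read 6.01 and the highest 6.04 and the gap took up 0.921 of the range. The cause was not tested.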

How the results depend on the processing

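MYC, MAX, MNT, MXD1 and MXD4 kept their sign in all 17 alternatives. MYC crossed the threshold without both arrays numbered 4 (-0.82) and without shCTRL array 4 (leave-one-out range -0.79 to -0.53), which makes 1 member called in place of 0. The fit with the replicate block gave the same change of MYC, -0.61, with a limma adjusted p of 0.169; it called 0 members and 6 genes in all. MXD3 and MLX turned to 0.019 and 0.052 under quantile normalization and to 0.0015 and 0.049 under cyclic loess, MLX to 0.00054 without both arrays numbered 4, and their leave-one-out ranges were -0.11 to 0.021 and -0.081 to 0.055. MXI1 turned to 0.030 as the mean of its probe sets and to 0.22 in its other probe set. Genes called over all genes numbered 14 as deposited, 5 under quantile normalization (5 higher, against 7 of 14), 10 under cyclic loess (7 higher), 44 without dim genes, 22 with an intensity trend, 124 with array weights and 368 without both arrays numbered 4, and leave-one-out gave 0 to 423; the 0, without shCTRL array 1, had 1574 at an unadjusted p under 0.05 by limma.

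List genes called, against 0 as deposited, were as follows. Without dim genes there was 1 each for nucleotide synthesis, polyamines and translation. With array weights there were 2 nucleolar, 3 nucleotide, 1 polyamine, 1 translation and 1 cell cycle gene. Without both arrays numbered 4 there were 3 nucleolar, 3 nucleotide, 1 polyamine, 1 translation, 1 cell cycle, 1 stability and 1 repressed gene. Leave-one-out gave 0 to 2 nucleolar, 0 to 6 nucleotide, 0 to 4 cell cycle, and 0 to 1 polyamine, translation, stability and repressed genes. The cause of these shifts was not tested. The files give no detection p, so how far background limits the dimmer members was not tested.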
